A study of Mus musculus with 6 samples.

Results

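Opioid peptides are cut from precursor proteins: Penk encodes proenkephalin, Pdyn prodynorphin, Pomc pro-opiomelanocortin (the source of beta-endorphin) and Pnoc the precursor of nociceptin. They act on receptors coupled to inhibitory G proteins, the mu (Oprm1), delta (Oprd1) and kappa (Oprk1) opioid receptors and the nociceptin receptor (Oprl1). Enkephalins are known to prefer delta and mu receptors and dynorphins the kappa receptor. In rodent hippocampus, dynorphin is known mainly from dentate granule cells and their mossy fibres, and enkephalin from interneurons and entorhinal inputs. These 8 genes, 4 precursors and 4 receptors, were chosen by name from the 23235 genes of the deposited table, and all 8 were found there.

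Hippocampal RNA came from 6 male mice at postnatal days 60 to 70. The 3 wildtype mice were Rbfox1 fl/fl; +/+, so both copies of Rbfox1, a gene for an RNA-binding splicing regulator, carried loxP sites but no Cre was present. The 3 Nes-cKO mice were Rbfox1 fl/fl; Nes/+, in which a Nestin-driven Cre removes the gene from neural progenitors and the neurons and glia derived from them. No group carried the Cre without the loxP sites, so the deletion and the Cre itself cannot be told apart. The deposited values are FPKM, fragments scaled by transcript length and library size, with 1 value per gene and genotype. Values of single mice were not analysed here, so no level below has a replicate error, and the depth per library is unknown. As a check of the labels, Rbfox1 itself went from 67.5 FPKM in wildtype down to 23.0 FPKM in Nes-cKO, a value of the whole gene. The genes that define hippocampal fields were present: the dentate marker Prox1 stood at 10.3 and 11.9 FPKM and the CA1 marker Wfs1 at 43.8 and 44.2 FPKM.

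The precursors differ in how many copies of the opioid core they hold. In the GENCODE M21 transcripts (GRCm38), Penk holds 7 stretches that encode an enkephalin core after a pair of basic codons, 6 of the methionine and 1 of the leucine kind. Pdyn holds 3, all of the leucine kind, Pomc 1 of the methionine kind and Pnoc 1 nociceptin core. Cores are printed for the changed precursors Penk and Pdyn, with those of Pomc and Pnoc for comparison. The core codons are in capitals, with the 6 bases before and after them in lower case, 5′ to 3′ on the coding strand.
Penk core 1, chr4:4134328-4134354, minus strand: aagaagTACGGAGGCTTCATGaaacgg
Penk core 4, chr4:4134067-4134093, minus strand: aagaggTATGGGGGCTTCATGagaagc
Penk core 6, chr4:4133935-4133961, minus strand: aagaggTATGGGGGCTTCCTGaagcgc
Penk core 7, chr4:4133842-4133868, minus strand: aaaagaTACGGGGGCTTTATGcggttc
Pdyn core 1, chr2:129688232-129688258, minus strand: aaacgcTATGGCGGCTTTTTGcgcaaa
Pdyn core 2, chr2:129688124-129688150, minus strand: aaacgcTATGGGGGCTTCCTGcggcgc
Pdyn core 3, chr2:129688067-129688093, minus strand: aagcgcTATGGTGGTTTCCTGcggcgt
Pomc core, chr12:3960367-3960393, plus strand: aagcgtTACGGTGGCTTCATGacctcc
Pnoc core, chr14:65404872-65404898, minus strand: aaaaggTTTGGGGGCTTCACCggggcc
A pair of basic codons, where processing enzymes can cut, also follows 5 of the 7 Penk cores and all 3 Pdyn cores. Whether the enzymes cut at each of these pairs cannot be read from the sequence. Penk cores 4 and 7 lack such a pair and lead the known longer enkephalins. Penk core 6 encodes leucine enkephalin. Among the 7 Penk cores there are 6 different DNA spellings.

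The precursors moved in opposite directions. Penk rose, Pdyn fell, the delta receptor gene Oprd1 rose, and the most abundant receptor transcript, Oprl1, stood at nearly the same level in both genotypes. In the authors' deposited table, 7 of the 8 genes had been tested and 3 passed a q of 0.05, 2 of them higher and 1 lower in Nes-cKO. Over all 14964 tested genes, 6.92% passed, 4.62% higher and 2.29% lower. The 3 changed opioid genes all held the smallest q of the authors' deposited table, 0.00152, which 491 genes at the smallest deposited p hold, so that table does not rank them.

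**Figure D1:**
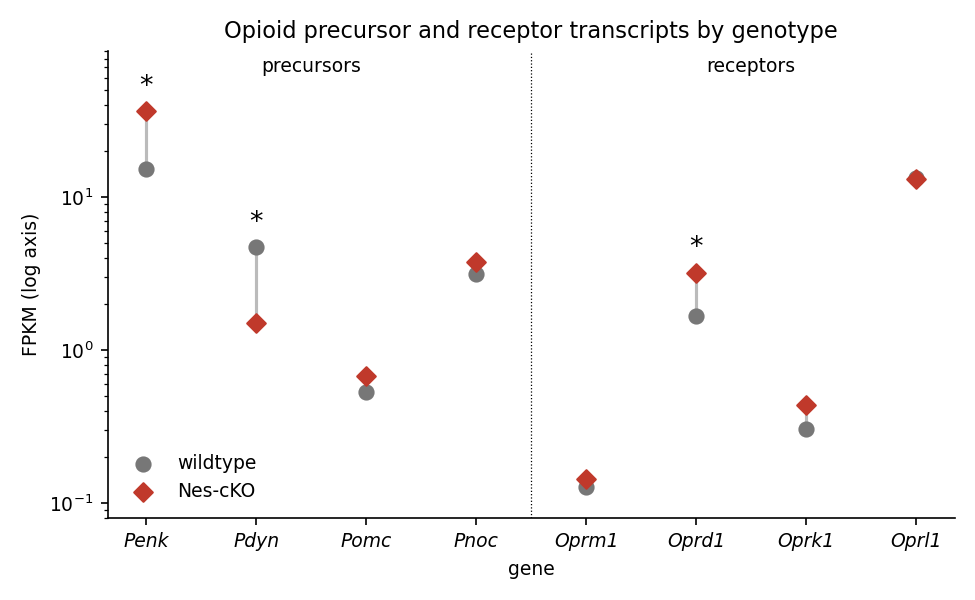
FPKM of the 8 genes on a log axis, with a circle for wildtype and a diamond for Nes-cKO, each the authors' group value for 3 mice; a star marks a q under 0.05 in the authors' deposited table. Penk goes up from 15.2 to 36.4 FPKM and Pdyn down from 4.70 to 1.49 FPKM, while the Oprl1 symbols lie on each other.

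Penk (mm9 chr4, 4060683 to 4065592) was the most abundant opioid transcript in both genotypes. It rose from 15.2 FPKM in wildtype to 36.4 FPKM in Nes-cKO, 2.38-fold (log2 ratio 1.25). That placed it at rank 121 by log2 ratio among the 692 genes called higher. Pdyn (mm9 chr2, 129513737 to 129515604) fell from 4.70 FPKM in wildtype to 1.49 FPKM in Nes-cKO. The Nes-cKO level was 31.8% of wildtype (log2 ratio -1.65), rank 13 of the 343 genes called lower and next to Rbfox1 itself at rank 14. Pdyn was above Pnoc in wildtype and below it in Nes-cKO. The ratio of Penk to Pdyn FPKM was 3.25 in wildtype and 24.3 in Nes-cKO.

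The other 2 precursors did not pass. Pnoc (mm9 chr14, 66019510 to 66044309), which in cortex and hippocampus marks a set of interneurons, had 3.11 FPKM in wildtype and 3.73 in Nes-cKO. The authors' deposited table gives it a q of 0.570. Pomc (mm9 chr12, 3954951 to 3960618), whose main brain source is the hypothalamus, had 0.532 FPKM in wildtype and 0.678 in Nes-cKO, and the authors' deposited table gives a q of 0.827. Of 10 hypothalamic and pituitary markers, 9 had too little signal for a test, Cga was listed at 0 in both genotypes and the summed level went from 0.685 to 1.24 FPKM. Trh, singled out after its value was seen, was the marker that passed, at 0.169 and 0.669 FPKM. The rise of the sum is mostly that of Trh.

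Summed over the 4 precursors, the wildtype level was 23.6 FPKM and the Nes-cKO level 42.3 FPKM. Without Penk the direction turned, with 8.34 FPKM for wildtype against 5.90 FPKM for Nes-cKO. Penk held 64.6% of the sum in wildtype and 86.0% in Nes-cKO, and Pdyn 19.9% and 3.54%. The 4 receptors summed to 15.3 and 16.8 FPKM, of which Oprl1 held 86.3% and 77.6%. Without Oprl1 the receptor sum was 2.09 FPKM for wildtype against 3.76 FPKM for Nes-cKO, a ratio of 1.80. Oprd1 held 10.8% and 18.9% of the receptor sum.

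**Figure D2:**
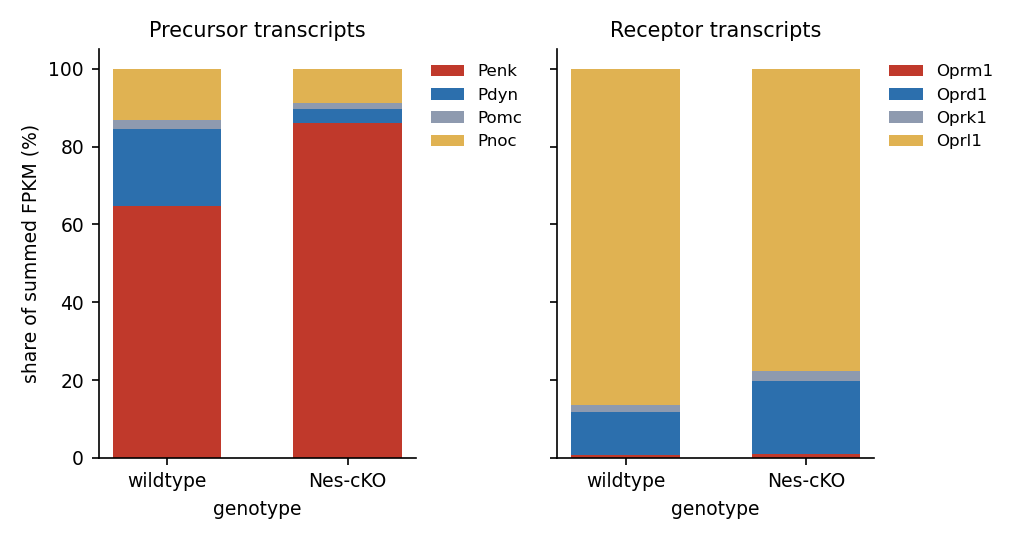
Share of the summed FPKM in percent held by each precursor (left) and each receptor (right), 1 bar per genotype. Pdyn shrinks from 19.9% to 3.54% of the precursor sum, and Oprd1 widens from 10.8% to 18.9% of the receptor sum.

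Among the receptors, Oprd1 rose. Oprd1 (mm9 chr4, 131666641 to 131700401) rose from 1.66 FPKM in wildtype to 3.19 FPKM in Nes-cKO, 1.92-fold (log2 ratio 0.94), rank 204 of the 692 genes called higher. The enkephalin precursor and this enkephalin receptor thus both had higher values in Nes-cKO, and the ratio of Penk to Oprd1 FPKM was 9.20 in wildtype and 11.4 in Nes-cKO. Oprk1 (mm9 chr1, 5578574 to 5596214), the dynorphin receptor, stood at 0.303 and 0.433 FPKM. The authors' deposited table gives it a p of 0.02905 and a q of 0.239, so it did not pass. The ratio of Pdyn to Oprk1 FPKM was 15.5 in wildtype and 3.45 in Nes-cKO.

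Oprl1 (mm9 chr2, 181449721 to 181455690) had a wildtype level of 13.2 FPKM and a Nes-cKO level of 13.1 FPKM (log2 ratio -0.01). Its q is 0.997 in the authors' deposited table. It lay above 79.7% of all genes in wildtype, close to Penk at 81.9%. Oprm1 (mm9 chr10, 3308332 to 3557940), the main target of morphine, was listed at 0.126 and 0.144 FPKM and had too little signal for a test. By FPKM the wildtype order was Penk, Oprl1, Pdyn, Pnoc, Oprd1, Pomc, Oprk1 and Oprm1. In Nes-cKO Pdyn moved behind Pnoc and Oprd1 and the others kept their order. Which neighbours in this order differ beyond the spread between mice cannot be said from group values.

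**Figure D3:**
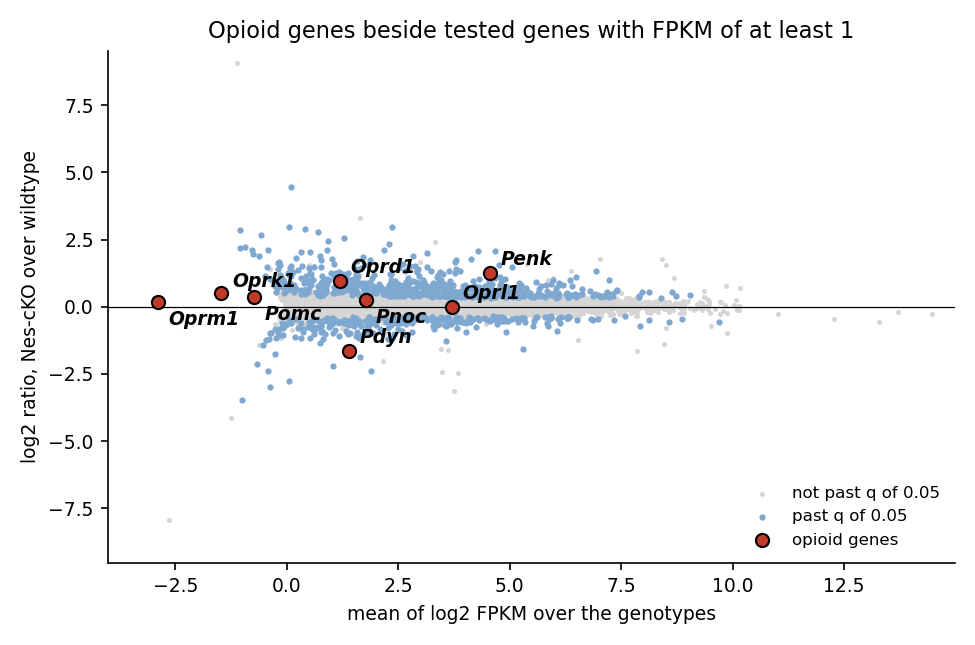
Log2 ratio of Nes-cKO over wildtype against the mean log2 FPKM of the 2 genotypes, with tested genes of at least 1 FPKM in either genotype as small points (blue: past q of 0.05) and the 8 opioid genes as large points. Penk and Oprd1 lie in the upper blue band at log2 ratios of 1.25 and 0.94, Pdyn lies at -1.65, and Oprl1 lies on the zero line.

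The gene models behind these values were compared by length with GENCODE M21. The deposited Pdyn model spans 1868 bp, exactly the distance from start to stop codon of Pdyn-201, whereas that transcript spans 13269 bp. The coding part is 747 of its 2386 nt. The model is also close to the span of Pdyn-203 (1859 bp), annotated as a retained intron, so which exons the Pdyn FPKM rests on cannot be told from length. The models of Oprd1 (33761 bp), Oprl1 (5970 bp), Pomc (5668 bp) and Pnoc (24800 bp) equalled the span of a full GENCODE transcript. Those of Penk (4910 bp against 4947), Oprk1 (17641 against 17639) and Oprm1 (249609 against 249390) came close to one. These are lengths only, since the builds differ. Another annotated gene, A830012C17Rik, overlaps the span of the Penk transcript in GENCODE M21. The libraries were strand-specific, but the part of reads from A830012C17Rik in the Penk value was not tested.

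Rbfox proteins bind the RNA motif UGCAUG, in introns for splicing and, for the cytoplasmic forms, in 3′ UTRs. The letters TGCATG were searched on the sense strand in the 3′ UTR of 1 coding transcript per gene. Among 12636 tested genes with an annotated 3′ UTR, 33.3% hold these letters. They occur in 5 of the 8 opioid genes, once each in Pdyn, Pomc and Oprm1, and at 2 places each in Oprk1 and Oprl1. Penk, Pnoc and Oprd1 have none in this window. Among tested genes with a 3′ UTR within 1.2-fold of the same length, the share that holds the letters is 39.3% for Pdyn, 3.83% for Pomc, 8.14% for Oprm1, 69.1% for Oprk1 and 43.5% for Oprl1. For the genes without a match it is 9.26% for Penk, 19.6% for Pnoc and 61.9% for Oprd1. The Pdyn match is shown because Pdyn fell. It starts 398 bases after the stop codon, and the motif is in capitals.
Pdyn 3′ UTR, chr2:129687586-129687615 (GRCm38), minus strand: tcctggtagtatTGCATGggaactgtgaga
A match in these letters is no measurement of binding.

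Of the 320 splicing events deposited for all genes, 1 lies in an opioid gene, a cassette exon of Oprl1. The 34 nt exon (mm9 chr2, 181451207 to 181451240) lies between exons of 242 and 356 nt. Its inclusion in the authors' deposited table was 28.4% in wildtype and 43.1% in Nes-cKO, a gain of 14.7 percentage points that ranks at 74 of 249 listed cassette exons by size. The authors' deposited table lists changes above 10 points only, and gives this exon a p of 3.64e-09. In GENCODE the same triplet of sizes is found in Oprl1-211 (exon at chr2:181716502-181716535 in GRCm38, plus strand), a transcript annotated as a target of nonsense-mediated decay. The exon is coding and its 34 nt are not a multiple of 3. It is printed here in capitals with 12 bases of each neighbouring exon.
Oprl1-211 exon: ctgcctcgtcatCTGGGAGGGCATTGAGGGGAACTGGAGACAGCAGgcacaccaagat
Oprl1-202, annotated as protein coding with 1062 coding nt, joins the same exon to a longer upstream exon of 257 nt, and Oprl1-201, with 1104 coding nt, skips it.

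The junction reads behind the Oprl1 exon were few. Wildtype had 3 reads into the exon, 28 out of it and 14 skipping it. Nes-cKO had 6 into it, 36 out of it and 6 skipping it. With the rounded mean of the inclusion junctions, inclusion was 53.3% of 30 reads in wildtype (95% Wilson interval 36.1% to 69.8%) and 77.8% of 27 reads in Nes-cKO (59.2% to 89.4%). The intervals overlap and cover counting error only. Fisher's exact test (two-sided) on these pooled reads gave p = 0.0943, or 0.169 after Benjamini-Hochberg adjustment over 249 exons, of which 24.1% passed in the listed direction. The test compares the pooled libraries, not the conditions. The junction into the exon was used by far fewer reads than the one out of it in both genotypes. The percentages from the rounded mean are higher than the deposited ones. From the junction into the exon alone, inclusion was 17.6% in wildtype, below the deposited value, and 50% in Nes-cKO, above it. How the deposited ratio weighs the junctions and the exon coverage is not given in the sources used here. At this depth the gain was not past the test on reads, while the Oprl1 level was nearly equal.

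**Figure D4:**
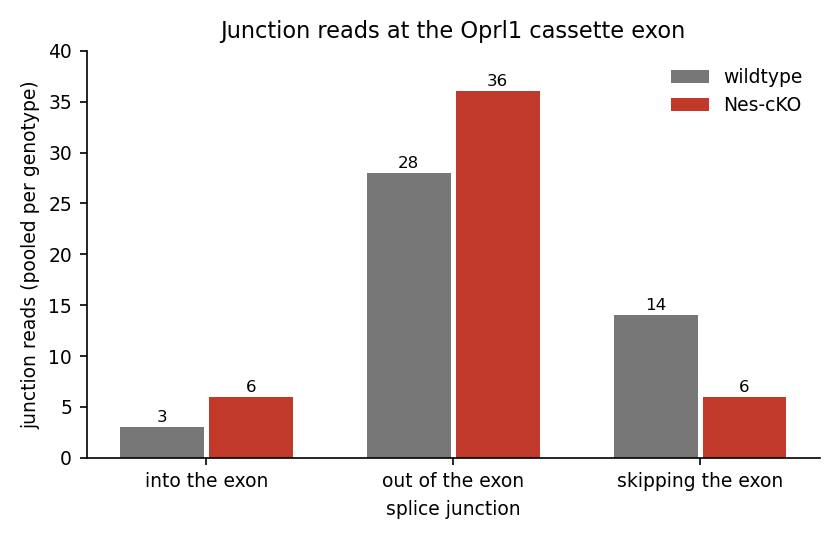
Reads over the splice junctions of the Oprl1 cassette exon, pooled per genotype as deposited. Skipping reads number 14 in wildtype and 6 in Nes-cKO, and reads out of the exon 28 and 36.

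Chosen lists cover genes for the processing and the degradation of opioid peptides and for signalling after the receptors. In each list, members with at least 1 FPKM in either genotype were counted, a set in which 7.10% of 12685 tested genes passed (4.69% higher, 2.41% lower) with a median log2 ratio of 0.03. Of the 7 listed processing genes, none passed q of 0.05 in the authors' deposited table, a count too small to set apart from that background, and their median was 0.05. Cpe, the carboxypeptidase that trims basic residues, stood at 1047 and 1082 FPKM, and Scg5, the chaperone of the convertase Pcsk2, at 115 and 103 FPKM. The same holds for the 5 measured peptide-degrading genes, of which none passed, at a median of 0.13, with the aminopeptidase gene Npepps at 33.7 and 35.5 FPKM and Dpp3 at 9.40 and 10.5 FPKM. The other 2 genes on that list, Mme and Anpep, lay under 1 FPKM in both genotypes. Mme, the enkephalin-cleaving neprilysin, was at 67.6% of wildtype, and the authors' deposited table gives it a q of 0.0606.

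Downstream of the receptors, single genes changed. The counts in the lists below are too small to set apart from the 7.10% that passed over all tested genes of at least 1 FPKM. None of 5 inhibitory G protein genes passed in the authors' deposited table, at a median of 0.03, with Gnao1 at 164 and 172 FPKM and Gnai2 at 58.0 and 57.1 FPKM. Of 11 measured effector genes, 1 rose and 1 fell, at a median of 0.02. Adcy1, a calcium-stimulated adenylyl cyclase, fell from 90.1 to 48.7 FPKM. Kcnj6, a subunit of the potassium channels that opioid receptors open, rose from 13.9 to 18.6 FPKM. Of 14 genes that end receptor signalling, Rgs4, which speeds the shut-off of inhibitory G proteins, rose from 45.0 to 81.1 FPKM and 13 did not pass, at a median of 0.12. Among atypical opioid-binding receptor genes, Cxcr7 (now Ackr3), a scavenger of opioid peptides, rose from 5.62 to 7.81 FPKM. Ogfr, a receptor for methionine enkephalin, had 14.0 and 17.3 FPKM, and its q was 0.158 in the authors' deposited table.

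Genes for transcription factors known to act on the precursor genes held several rises. Of 10 measured, 5 rose, none fell and 5 did not pass in the authors' deposited table, at a median of 0.45. Over all tested genes of at least 1 FPKM, 4.69% passed as higher and 2.41% as lower, at a median of 0.03. Among the AP-1 genes, Fosb rose from 1.83 to 14.5 FPKM, Fos from 5.41 to 10.3 FPKM and Fosl2 from 7.65 to 13.7 FPKM. Jund also rose, from 20.9 to 31.1 FPKM, while Jun (30.0 and 34.9 FPKM) and Junb (23.2 and 28.9 FPKM) did not pass. AP-1 and CREB proteins are known to bind the Penk enhancer. Creb1 had 5.12 and 5.51 FPKM, and its q was 0.891 in the authors' deposited table. Kcnip3, which encodes DREAM, a calcium-controlled repressor described on the Pdyn gene, rose from 27.2 to 50.3 FPKM. The list was chosen with results of these data known, so its count is no independent evidence. The part of these factors in the Penk and Pdyn changes was not tested.

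**Figure D5:**
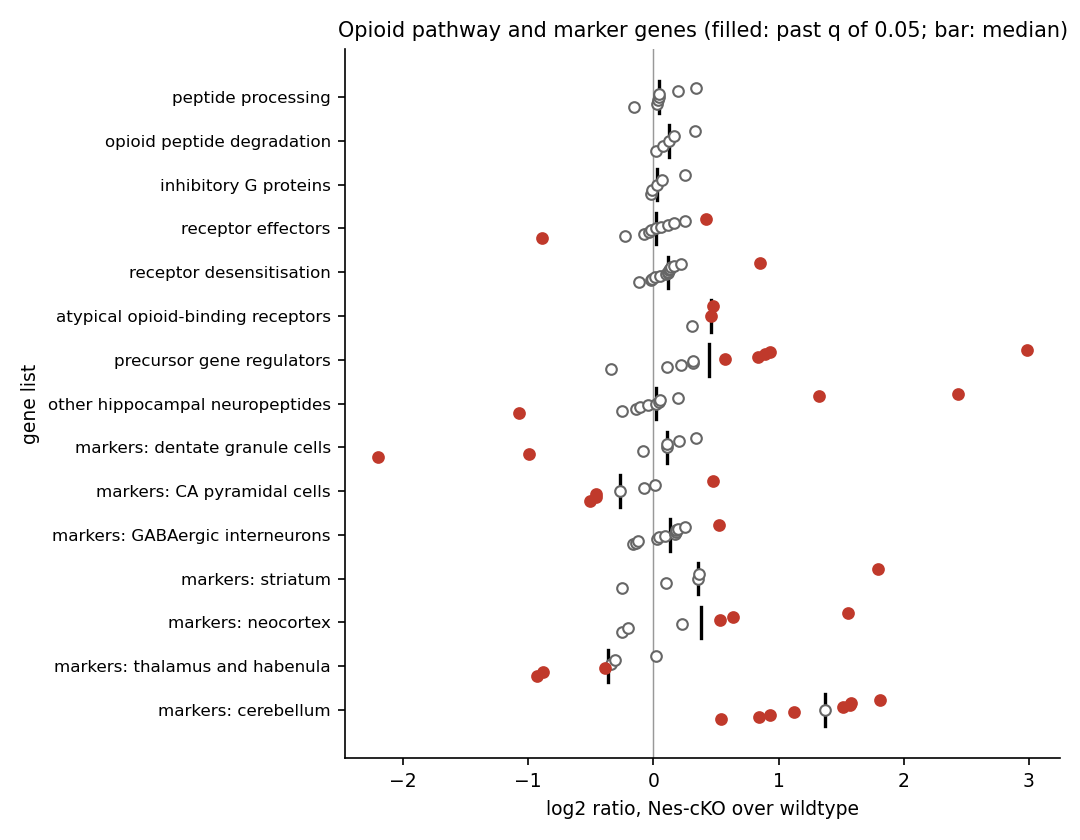
Log2 ratio of Nes-cKO over wildtype for each pathway and marker gene with a test and at least 1 FPKM in either genotype, 1 point per gene; filled points passed q of 0.05 in the authors' deposited table and bars are list medians. The processing, degrading and G protein lists hold no filled point, the precursor gene regulators have a median of 0.45, and the cerebellum markers reach a median of 1.37.

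Some markers of hippocampal cell types and of other brain regions moved in the same libraries. In whole tissue, fewer cells of a type and less RNA per cell cannot be told apart. Over all tested genes of at least 1 FPKM, 7.10% passed, 4.69% higher and 2.41% lower. Of 7 dentate granule cell markers, Tdo2 fell from 4.37 to 0.952 FPKM and Trpc6 from 5.39 to 2.71 FPKM, as Pdyn did, and 5 did not pass. The 7 summed to 107 FPKM in wildtype against 109 in Nes-cKO, with Prox1 and Calb1 (45.1 and 42.6 FPKM) among those that did not pass. Of 12 interneuron markers found in the table, Reln rose from 5.51 to 7.93 FPKM and 11 did not pass. That count is too small to set apart from the share over all tested genes. Their sum was 484 and 481 FPKM, of which Sst alone held 302 and 275 FPKM, so the sum mostly follows Sst. Log2 ratios were positive for 9 of these 12 markers, beside 7320 of all 12685 tested genes of at least 1 FPKM. Their median was 0.14, beside 0.03 for those tested genes. Of 7 CA pyramidal markers, Spink8, Fibcd1 and Cpne4 fell to 70.6%, 72.7% and 72.6% of wildtype, Grik4 rose 1.39-fold and 3 did not pass, with sums of 247 and 213 FPKM.

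Beside the rise of Penk, which striatum also expresses strongly, the striatal marker Drd1a rose from 1.08 to 3.74 FPKM. The other 4 of the 5 measured striatal markers did not pass. The share over all tested genes of at least 1 FPKM was 7.10%, with 4.69% higher and 2.41% lower. Among genes known from striatal enkephalin neurons, Adora2a stood at 0.475 and 0.543 FPKM and Drd2 at 1.04 and 1.34 FPKM. The 9 markers summed to 34.1 and 42.6 FPKM, of which Ppp1r1b, which did not pass, held 20.7 and 26.6 FPKM. Of 9 cerebellum markers 8 rose, with Gabra6 up from 3.51 to 10.5 FPKM, Cbln3 from 3.98 to 11.4, Car8 from 2.04 to 6.06 and Fat2 from 0.611 to 2.14. The 9 summed to 30.1 FPKM in wildtype against 71.4 in Nes-cKO. Of 6 neocortex markers 3 rose, Rprm (15.9 to 46.6 FPKM), Ctgf (2.66 to 4.14 FPKM) and Cux2 (3.17 to 4.57 FPKM). All 7 on the list summed to 47.5 and 81.9 FPKM, and the rise of that sum is mostly that of Rprm. Of 6 thalamus and habenula markers, Lhx9 fell from 4.11 to 2.16 FPKM, Prkcd from 8.11 to 4.39 FPKM and Ntng1 from 6.61 to 5.06 FPKM, while the 8 on the list summed to 29.7 and 21.4 FPKM. The part of these tissues in the Penk, Oprd1 and Pdyn results was not tested.

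Genes nearest in level and change were looked up for Penk and Pdyn by the distance between their log2 FPKM in the 2 genotypes, over 14946 tested genes with a value above 0 in both. Among the genes nearest to Penk were Homer1, at 16.6 and 32.4 FPKM (distance 0.21), Slc7a4, Olfm2 and Grp. Homer1 encodes a synaptic scaffold and Grp the neuropeptide gastrin-releasing peptide. Nearest to Pdyn were Ntf3, the neurotrophin 3 gene, at 5.96 and 1.64 FPKM (distance 0.37), then Cort, Pde7b, Scn4b and Itga4.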

How the data were processed

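Per the labels' protocols, the libraries were poly(A)-selected and strand-specific, with 50 bp read from each end. CASAVA, Cufflinks, Cuffdiff and the build mm9 are named in the submitters' processing notes, with no version. No aligner is named there. The 3 mice of a genotype share 1 deposited value, so depth and spread per mouse are unknown and no test over mice was run. The deposited gene table holds, per the file headers, FPKM per genotype with p-values and q-values. The deposited splicing tables hold inclusion as a fraction, p-values and whole junction read counts per genotype, per the file headers.

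Log2 ratios were taken of the deposited FPKM without a pseudocount, and no expression test was run here: calls are those of the authors' deposited table at q under 0.05. The design had set no test for splicing; a test on junction reads was added after seeing the data, with Fisher's exact test and Benjamini-Hochberg adjustment over all cassette exons, a step tested on simulated data. Wilson intervals are at the 95% level. Sequences and transcript models came from GENCODE M21, using the complete coding transcript with the longest coding part.

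Members, lists and tests were chosen with earlier results of these data known. Alternatives were other q limits, pseudocounts, centring, sums without the top gene and other uses of the junction reads. Genes named are the members, Rbfox1, per list up to 4 changed genes by size (or the 2 most highly expressed), and the 5 nearest to Penk and to Pdyn. Prox1, Wfs1, Calb1, Mme, Creb1, Jun, Junb, Jund, Sst, Ogfr, Adora2a, Drd2, Ppp1r1b and Anpep were added after their values were seen. A few genes that the rule names are not reported here. Python 3.11.15, numpy 2.4.6, pandas 2.3.3, scipy 1.17.1 and matplotlib 3.10.9 were used.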

Additional observations from a re-analysis of the deposited data

How the results depend on the processing

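The count of 3 changed opioid genes was the same at q under 0.01 or 0.1 and when p-values were adjusted again over genes with at least 1 FPKM. The count over all genes was 674 at q under 0.01 against 1035 at q under 0.05. No opioid gene changed direction with a pseudocount of 0.1 or 1 or with centring on the median, but a pseudocount of 1 brought Pdyn to -1.19, Oprd1 to 0.66 and Oprk1 to 0.14 (log2). The ratio of summed precursors, 1.79, became 0.708 without Penk, and that of summed receptors became 1.80 without Oprl1, by construction of the sums. The median of the other neuropeptides turned from 0.02 to -0.01 with all tested members counted. For the Oprl1 exon, alternatives chosen after seeing the data gave a gain of 32.4 points from the junction into the exon, 19.0 from the one out of it and 18.6 from their sum, against 24.4, with adjusted p between 0.0913 and 0.175, so none passed. No paired analysis was possible because the tables hold 1 value per genotype, and for the same reason no mouse could be left out.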

Other observations

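Other neuropeptide precursors of the hippocampus were counted beside the opioid ones. Of 11 with at least 1 FPKM in either genotype, Npy rose from 77.3 to 193 FPKM and Gal (galanin) from 0.815 to 4.40 FPKM. The cortistatin gene Cort fell, with 4.21 FPKM in wildtype against 2.00 in Nes-cKO. The remaining 8 did not pass in the authors' deposited table. Over all tested genes of at least 1 FPKM, 7.10% passed, 4.69% higher and 2.41% lower. The most abundant of these transcripts, Cck at 312 and 290 FPKM and Sst at 302 and 275 FPKM, were among those 8. At the median their log2 ratio was 0.02, beside 0.03 for all tested genes of that level.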
